A study of Arabidopsis thaliana with 15 samples.

Results

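The comparison described here sets inflorescence meristems of the Arabidopsis thaliana double mutant labelled myb3r1myb3r4 against those of Col-0, the wild type. It uses 6 of the 15 RNA-seq libraries, 3 of each genotype, and the 21737 of 33326 genes that reached a TPM (a length-corrected share of all transcripts) of 1 in at least 3 of the 15 libraries. The single mutants myb3r1 and myb3r4, with 3 libraries each, are set beside them where the double mutant was tested against them, and the remaining 3 libraries, of a line labelled pMYB3R4::GFP-MYB3R4mNES, enter only the shared estimate of variance. Plants of every group grew in 16 h of light at 170 µmol m-2 s-1 and 8 h of dark, at 21 °C by day and 17 °C by night, until the stem was about 1 cm long, and each library was a pool of 36 meristems. The labels do not give the mutant alleles or say whether replicates came from separate plantings, and p-values therefore reflect the spread among these pools, which may be technical.

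MYB3R proteins are transcription factors of plants with repeated MYB domains, related to the animal MYB proteins. They bind the mitosis-specific activator (MSA) element, whose core is AACGG, in promoters of genes that are switched on late in the cell cycle. MYB3R4 is known mainly as an activator of such genes, MYB3R3 and MYB3R5 as repressors, and MYB3R1 as able to act either way. Loss of the activators is known to leave cells with incomplete walls after division.

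Within a genotype the libraries were alike, with correlations of log2 values across genes of 0.986 to 0.988 in the double mutant and in Col-0, against 0.938 to 0.961 between libraries of the 2 genotypes. Between 20370 and 20560 genes reached 1 TPM in a double mutant library and between 20677 and 20847 in a Col-0 library. Read totals cannot be had from TPM, and the depth of each library is unknown. Meristem markers were present. STM, a meristem homeobox gene, had 49.2 to 51.9 TPM in the double mutant and 44.8 to 49.2 TPM in Col-0, and AP1, a floral meristem gene, had 139 to 158 TPM in the double mutant and 151 to 163 TPM in Col-0. The stem cell peptide gene CLV3 was near absent in these values, with at most 0.275 TPM in a double mutant library and 0.143 TPM in a Col-0 library.

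Transcripts of the mutated genes were not lower in the double mutant. MYB3R1 (AT4G32730, chromosome 4, 15790133 to 15796114, TAIR10.1) had 15.2, 14.1 and 14.0 TPM in the double mutant and 13.5, 13.1 and 13.4 TPM in Col-0. MYB3R4 (AT5G11510, chromosome 5, 3679748 to 3684884) had 17.1, 16.8 and 17.4 TPM in the double mutant, against 12.8, 10.4 and 10.4 TPM in Col-0. Neither pair of groups overlapped, but the MYB3R1 difference did not pass the test (log2 difference 0.11, limma adjusted p = 0.0742), while MYB3R4 was higher by 0.59 ± 0.07 (log2, SE, adjusted p = 1.77e-05). These are sums over a whole gene and do not show whether a complete message is made, so they test the labels only in part. The related repressor genes MYB3R5 (log2 difference 0.42, adjusted p = 0.00607) and MYB3R3 (0.29, adjusted p = 0.0123) were higher too, although MYB3R3 missed the threshold without double mutant replicate 3 (0.24, adjusted p = 0.059). MYB3R2 stayed under 0.44 TPM in all 6 libraries and was not tested. Of the 19 tested genes within 50 kb of MYB3R1, 4 were higher and 3 lower, and of the 23 within 50 kb of MYB3R4, 5 were higher and 5 lower. Over all genes tested 24.5% were higher and 17.1% lower.

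A large part of the transcriptome differed, mostly by small amounts. At an adjusted p under 0.05, limma called 9037 genes, 41.6% of those tested, with 5321 genes (24.5%) higher in the double mutant and 3716 (17.1%) lower. Log2 differences are on the scale log2(TPM + 0.5), which understates changes of genes near 0 TPM. The called genes included 5825 that differed by less than 0.5 on this scale. The larger differences ran the other way, since 343 genes (1.58%) were at least 2-fold higher and 1032 (4.75%) at least 2-fold lower. The direction of the small differences depended on scaling. TPM put 58.9% of called genes on the higher side, and median-of-ratios scaling put 45.3% there, with 3795 higher and 4587 lower, although it moved the median gene by only 0.05. In 8714 of the called genes the 3 double mutant values and the 3 Col-0 values did not overlap. This was counted only among genes that the test had picked from the same values, so it is not separate support for the calls. Bulk TPM cannot tell fewer cells of a type from less RNA per cell, here and in all results that follow.

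**Figure D1:**
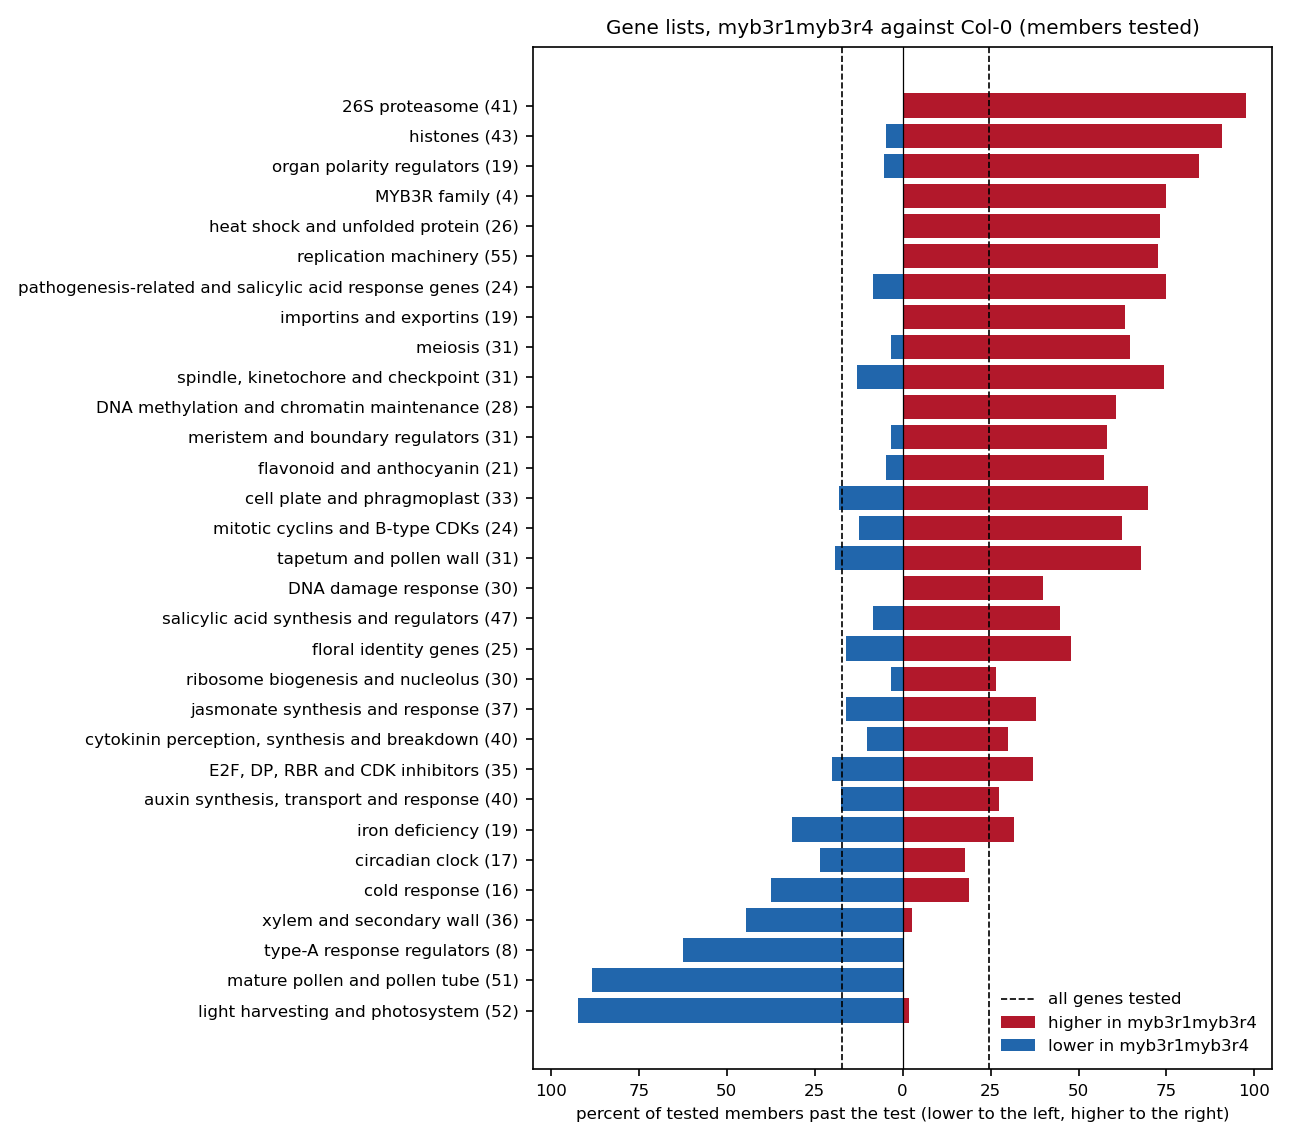
Percent of the tested members of 31 gene lists that were higher (red, to the right) or lower (blue, to the left) in myb3r1myb3r4 than in Col-0, with the number tested in parentheses. The dashed lines mark the shares over all genes tested, 24.5% higher and 17.1% lower; proteasome and histone genes lie far to the right, and light harvesting and mature pollen genes far to the left.

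The cell division genes split into a majority that was higher and a smaller group that was lower, some of it strongly. Over 3 lists (mitotic cyclins and B-type CDKs, spindle and checkpoint genes, and cell plate and phragmoplast genes), 61 of 88 tested members were higher, 13 were lower and 14 did not pass. Their median log2 difference was 0.29, against 0.05 over all genes tested. The called members ranged from -1.54 to 0.94. The promoters of 4 members, 3 that were lower and 1 that was higher, are shown first because the MSA core is the textbook contact of MYB3R proteins. Each is the 250 bases before the annotated gene start in TAIR10.1 (RefSeq), written 5′ to 3′ on the strand of the gene, with AACGG on either strand (AACGG or CCGTT) in capitals. The windows are KN at chr1:2711001-2711250 (minus strand), SCL28 at chr1:23402177-23402426 (minus), CYCB2;1 at chr2:7663805-7664054 (plus) and CYCB1;1 at chr4:17624309-17624558 (minus), and a window can run into a neighbouring gene.
KN: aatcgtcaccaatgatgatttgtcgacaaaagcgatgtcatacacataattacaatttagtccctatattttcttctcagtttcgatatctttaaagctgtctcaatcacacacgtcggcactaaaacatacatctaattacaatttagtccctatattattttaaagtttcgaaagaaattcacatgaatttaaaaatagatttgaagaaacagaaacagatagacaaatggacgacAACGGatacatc
SCL28: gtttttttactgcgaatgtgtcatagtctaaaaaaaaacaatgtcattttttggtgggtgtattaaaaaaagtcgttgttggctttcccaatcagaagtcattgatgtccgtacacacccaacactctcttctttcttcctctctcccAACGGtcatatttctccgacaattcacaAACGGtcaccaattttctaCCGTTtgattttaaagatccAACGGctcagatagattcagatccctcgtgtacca
CYCB2;1: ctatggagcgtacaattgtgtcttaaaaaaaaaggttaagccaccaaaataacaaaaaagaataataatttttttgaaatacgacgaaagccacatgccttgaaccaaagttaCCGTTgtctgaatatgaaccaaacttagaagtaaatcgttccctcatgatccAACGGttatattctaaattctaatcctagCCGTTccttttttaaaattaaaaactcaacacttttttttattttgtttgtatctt
CYCB1;1: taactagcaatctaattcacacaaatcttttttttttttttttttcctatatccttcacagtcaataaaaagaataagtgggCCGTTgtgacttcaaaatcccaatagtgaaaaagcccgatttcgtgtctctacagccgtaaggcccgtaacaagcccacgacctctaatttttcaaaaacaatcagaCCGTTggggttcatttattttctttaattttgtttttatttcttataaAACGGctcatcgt
The SCL28 window held 4 cores, all within the longer form CNAACGG, the CYCB2;1 and CYCB1;1 windows held 3 each, and the KN window held 1. These 4 windows were picked for display, and other genes with large differences lacked the core. The windows of TAN and PATL1, which were lower, and of BUBR1 and MKK6, which were higher, held 0 cores. Both the lower and the higher division genes carried the core more often than promoters at large. It occurred in 7 of the 13 lower genes (53.8%) and in 30 of the 61 higher genes (49.2%), against 21.9% of 21468 promoters of tested genes. Among all called genes the core occurred in 23% of those higher and 21.3% of those lower, near that share. The 14 division genes that did not pass the test were also mixed. AUR2, CYCB1;2, AIR9, TPLATE, SGO1, CYCB1;3 and CYCA2;1 held the core, while FZR2, CYCA3;2, FZR1, VAMP722, CDKA;1, KEU and CYCB1;5 held 0 cores. A link between the core and the response of division genes was not tested. The longer form CNAACGG, which contains the core, occurred in 5 of the 13 lower (38.5%) and 13 of the 61 higher genes (21.3%), against 4.98% of all. A match is a run of letters and not a measured binding site.

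The gene with the largest fall among the cell division genes was KN, which encodes KNOLLE, the syntaxin that fuses vesicles into the cell plate. KN had 30.7, 34.4 and 31.1 TPM in the double mutant, 94.4, 95.3 and 97.1 TPM in myb3r1, 55.7, 53.1 and 47.6 TPM in myb3r4, and 97.2, 94.7 and 90.5 TPM in Col-0. The double mutant lay below both single mutants and Col-0 without overlap, at a log2 difference from Col-0 of -1.54 ± 0.058 (SE, n = 3 each, limma adjusted p = 8.93e-10). It was also lower than myb3r4 by itself (-0.69, adjusted p = 6e-06). PATL1, a lipid-binding patellin of the cell plate, had 32.5, 36.5 and 27.9 TPM in the double mutant, 74.3, 71.1 and 73.0 TPM in myb3r1, 65.8, 62.8 and 67.9 TPM in myb3r4, and 74.3, 78.1 and 77.6 TPM in Col-0. Its level in the double mutant was well below that in each of the other 3 genotypes (-1.24 against Col-0, adjusted p = 3.16e-07, and -1.02 against myb3r4, adjusted p = 6e-06).

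SCL28, a GRAS transcription factor that acts in the G2 phase, had 12.6, 11.1 and 12 TPM in the double mutant, 32.8, 32.9 and 34.1 TPM in myb3r1, 18.1, 20.16 and 17.9 TPM in myb3r4, and 23.6, 24.8 and 26.7 TPM in Col-0. The 4 genotypes did not overlap, and myb3r1 lay above Col-0 while the double mutant lay lowest (-1.04 ± 0.064 against Col-0, limma adjusted p = 1.22e-07, and -0.64 against myb3r4, adjusted p = 1.99e-05). For 3 further genes the difference between the double mutant and myb3r4 did not pass the test. TAN encodes TANGLED, which marks the plane of division, and had 5.63, 6.25 and 4.80 TPM in the double mutant, 14.7, 15.5 and 15.4 TPM in myb3r1, 6.84, 5.68 and 5.91 TPM in myb3r4, and 15.8, 13.8 and 13.8 TPM in Col-0. It fell by 1.31 on the log2 scale against Col-0 (adjusted p = 3.25e-07) but differed from myb3r4 by -0.14, which did not pass the test (adjusted p = 0.264). The mitotic cyclin CYCB2;1 had 1.80, 2.39 and 2.09 TPM in the double mutant, 6.69, 5.75 and 5.19 TPM in myb3r1, 3.31, 2.67 and 2.45 TPM in myb3r4, and 5.06, 5.09 and 4.91 TPM in Col-0. Its log2 difference was -1.10 ± 0.14 from Col-0 (adjusted p = 3.57e-05) and -0.35 from myb3r4 (adjusted p = 0.0597). Every double mutant value of CYCB2;1 was nevertheless below every myb3r4 value. CYCB2;2 averaged 8.05 TPM in the double mutant and 13.7 TPM in Col-0 (log2 difference -0.73, adjusted p = 1.27e-06), and differed from myb3r4 by -0.03 (adjusted p = 0.729).

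The remaining 7 lower members fell by smaller amounts. CSLD5, a wall synthase of the cell plate, differed by -0.51, and PATL4 by -0.49. CDC20.1 and CDC20.2, near-identical activators of the anaphase-promoting complex whose reads may be shared, differed by -0.41 and -0.42. CYCB1;4, the microtubule protein gene EDE1 and the spindle checkpoint gene MAD2 differed by -0.37, -0.28 and -0.17. CYCB1;2 (-0.13, limma adjusted p = 0.168) and the Aurora kinase AUR2 (-0.13, adjusted p = 0.219) did not pass the test.

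The higher members stayed under 2-fold. BUBR1, a kinetochore checkpoint protein, had 27.7, 29.2 and 28.3 TPM in the double mutant and 15, 14.5 and 14.1 TPM in Col-0. The groups lay far apart, at a log2 difference of 0.94 ± 0.062 (SE, limma adjusted p = 2.1e-07), and BUBR1 was also higher than in myb3r1 (0.56) and in myb3r4 (0.64). MKK6, a MAP kinase kinase of cytokinesis, had 28.9, 24.7 and 28.1 TPM in the double mutant and 15.4, 15 and 14.8 TPM in Col-0 (0.83, adjusted p = 4.31e-07). The mitotic chromosome protein gene 3xHMG-box2 had 211, 210 and 224 TPM in the double mutant and 132, 119 and 115 TPM in Col-0 (0.82, adjusted p = 1.12e-07). For both genes every double mutant library was above every Col-0 library. CYCB1;1, a cyclin of G2 and mitosis that DNA damage also induces, had 33.0, 31.6 and 31.7 TPM in the double mutant and 19.1, 19.6 and 17.1 TPM in Col-0. It was higher by 0.77 ± 0.074 (adjusted p = 5.16e-06), and by 0.73 against each single mutant.

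Further higher members covered each step of division. Among cyclins and their kinases CYCA2;4 was higher by 0.74, CDKB1;1 by 0.68, CYCB3;1 by 0.65 and CDKB2;2 by 0.50 (log2). Among motors and spindle genes the kinesins ATK5, PAKRP1 and PAKRP1L were higher by 0.69, 0.65 and 0.63, and TOPII, which untangles chromosomes, by 0.57. MAP65-3, which bundles the microtubules of the phragmoplast midline, was higher by 0.50.

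**Figure D2:**
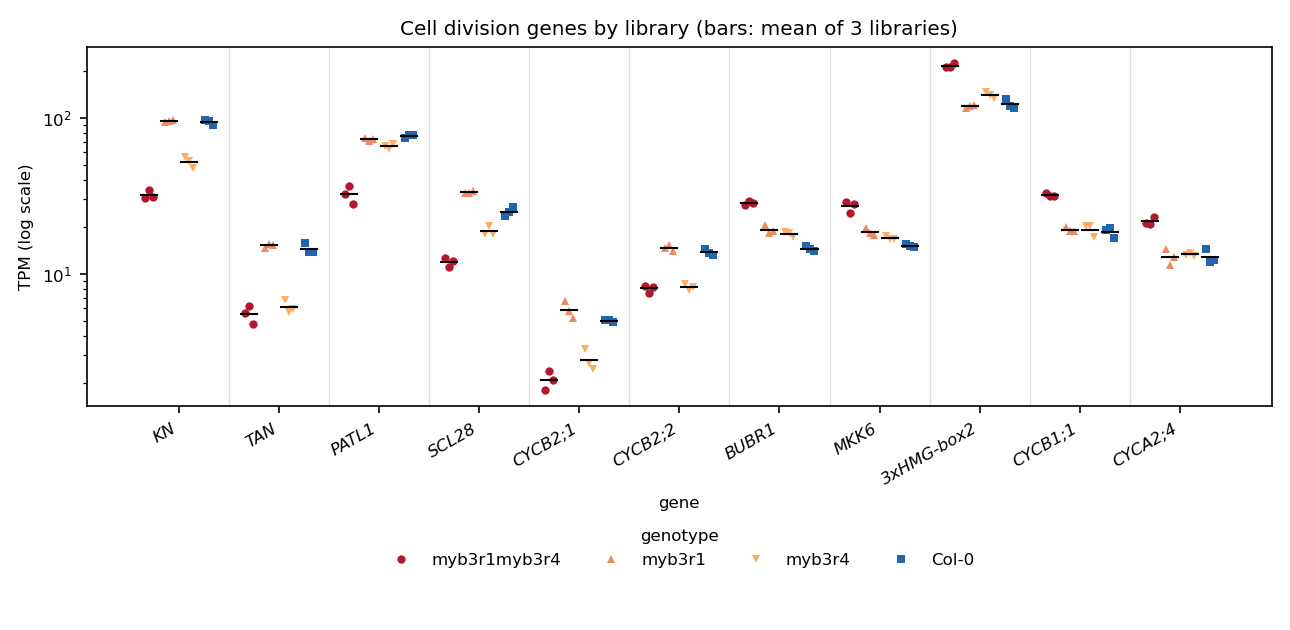
TPM on a log scale of 11 cell division genes in each library of myb3r1myb3r4 (red circles), myb3r1 (orange triangles), myb3r4 (yellow inverted triangles) and Col-0 (blue squares), with black bars at the mean of 3 libraries. KN, PATL1 and SCL28 are lowest in the double mutant, TAN and CYCB2;2 overlap between the double mutant and myb3r4, and the 5 genes from BUBR1 to CYCA2;4 are highest in the double mutant.

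The higher majority was also present against the single mutants, whereas the lower group was hardly present against myb3r4. Against myb3r1, where 17.2% of all genes were higher and 12.9% lower, 54 of the 88 division genes were higher and 14 lower, with a median of 0.24. Against myb3r4, where 20.1% of all genes were higher and 14.6% lower, 58 were higher and 4 lower, with a median of 0.25. TAN, CYCB2;1 and CYCB2;2 were among those that did not pass against myb3r4. The 3 contrasts share the double mutant libraries and are not independent.

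Genes of DNA synthesis were higher as a group. Of 55 tested members of the replication machinery 40 were higher, none was lower and 15 did not pass, with a median of 0.28. CDC45, part of the replicative helicase, had 10.2, 9.36 and 10.7 TPM in the double mutant and 6.65, 6.43 and 7.86 TPM in Col-0, which did not overlap (log2 difference 0.50, limma adjusted p = 0.000304). The helicase subunit MCM6 differed by 0.48, the fork protein TIM by 0.47 and the sliding clamp PCNA2 by 0.47. The letters TTTNNCGC, an element bound by E2F factors, were found on either strand in 15 of the 40 higher promoters (37.5%) and in 6.04% of all promoters of tested genes, and AACGG was found in 20% of the 40.

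Histone genes showed the same direction at higher levels. Of 43 tested members 39 were higher and 2 lower, with a median of 0.44. Their summed level was 17010 to 17690 TPM in the double mutant libraries and 12040 to 12560 TPM in Col-0. HTA13, an H2A gene, had 555, 564 and 594 TPM in the double mutant and 342, 322 and 339 TPM in Col-0, far apart (0.77, limma adjusted p = 1.15e-05). All 12 tested H2A genes and all 8 H4 genes were higher, although copies of one histone are nearly identical and may share reads. The 2 exceptions, both H2B genes, were AT5G02570 (-1.25) and AT1G08170 (-1.07). AT1G08170 was near the floor, at 0.14 to 0.22 TPM in the double mutant and 0.74 to 1.16 TPM in Col-0.

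Genes that copy DNA methylation and guard the genome followed. In the DNA methylation and chromatin maintenance list 17 of 28 tested members were higher and none was lower. CMT3, a plant DNA methyltransferase, was higher by 0.55, VIM1, which binds hemimethylated DNA, by 0.50, and the remodeller DDM1 by 0.47. In the DNA damage list 12 of 30 were higher (40%) and none was lower, against 24.5% higher and 17.1% lower over all genes tested. The higher ones included BARD1 (0.48), BRCA1 (0.45) and SOG1 (0.40), the transcription factor of the plant damage response. SMR5, a CDK inhibitor that damage is known to induce, had 8.34, 1.92 and 0 TPM in the double mutant and 0.815, 0 and 1.00 TPM in Col-0. Those groups overlapped, and the difference did not pass the test (limma adjusted p = 0.389).

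CDK inhibitors of the SIAMESE-related family divided. SMR2 had 10.2, 9.0 and 7.86 TPM in the double mutant and 16.4, 14.9 and 19.7 TPM in Col-0, and was lower without overlap (-0.88, limma adjusted p = 4.29e-05). SMR13 (-1.01), SMR12 (-0.97) and SIM (-0.53) were lower as well, while SMR4 was higher (0.66). Among the KRP inhibitors KRP3 was higher by 0.60 and KRP2 lower by 0.30. The E2F factors E2FB (0.33) and E2FC (0.30) and the related repressor DEL3 (0.56) were higher. In the whole list of 35, 13 were higher (37.1%) and 7 lower (20%), against 8 and 8 with median-of-ratios scaling. The shares over all genes tested were 24.5% higher and 17.1% lower.

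Salicylic acid genes held the largest rise of the 31 lists. Salicylic acid is the plant hormone of defence against biotrophic pathogens. Its synthesis and signalling run through EDS1, PAD4, SARD1 and NPR1, and its response through pathogenesis-related proteins. BGL2, a beta-glucanase also known as PR2, had 34.4, 49.6 and 44.7 TPM in the double mutant, 0.371, 0.349 and 0.537 TPM in myb3r1, 2.45, 1.31 and 1.55 TPM in myb3r4, and 0.327, 0.492 and 0.401 TPM in Col-0. The double mutant stood far above all the other genotypes, at log2 differences of 5.57 ± 0.19 from Col-0 (SE, limma adjusted p = 3.06e-10), 5.55 from myb3r1 and 4.28 from myb3r4. The chitinase gene CHI had 26.5, 27.5 and 28 TPM in the double mutant and 0.284, 0.377 and 0.60 TPM in Col-0 (4.93, adjusted p = 2.64e-09). PNP-A, a secreted natriuretic peptide, had 40.6, 56.2 and 50.3 TPM in the double mutant and 2.28, 2.88 and 4.62 TPM in Col-0 (3.75, adjusted p = 3.05e-08). For CHI and PNP-A the lowest double mutant library lay several-fold above the highest Col-0 library. AED1, a secreted protease, averaged 37.2 ± 2.94 TPM in the double mutant and 3.01 ± 0.240 TPM in Col-0 (SD, n = 3 each; 3.42, adjusted p = 1.36e-10). Of the 24 tested response genes 18 were higher and 2 lower, with a median of 0.85, and PR5 (2.66) and BG3 (2.32) belong to the higher ones. The 2 lower genes were PCC1 (-0.97) and ELI3-2 (-1.05).

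Regulators of the hormone rose less, and 3 genes of its synthesis did not pass the test. DMR6, an oxygenase that breaks down salicylic acid, had 34.6, 35.6 and 38.1 TPM in the double mutant and 10.2, 11.7 and 9.86 TPM in Col-0, well apart (1.73, limma adjusted p = 1.23e-09). PAD4 (1.32), EDS1 (0.94) and NPR1 (0.41) were higher. WRKY46, a transcription factor gene, had 9.13, 13.5 and 8.71 TPM in the double mutant and 0.615, 1.91 and 2.29 TPM in Col-0 (2.46, adjusted p = 4.53e-05). SARD1, an activator of salicylic acid synthesis, had 10.5, 13.4 and 8.71 TPM in the double mutant and 1.98, 2.79 and 3.03 TPM in Col-0 (1.87, adjusted p = 7.66e-06). Both genes were well above Col-0, and their differences from myb3r4 did not pass the test, at 0.43 (adjusted p = 0.304) and 0.18 (adjusted p = 0.495). The synthesis genes ICS1 (0.20, adjusted p = 0.215), EDS5 (0.26, adjusted p = 0.386) and PBS3 (-0.07, adjusted p = 0.62) did not pass. Over the 47 tested regulators and enzymes 21 were higher and 4 lower, among them the glucosyltransferase UGT74F2 (-1.22). Against myb3r4, where 20.1% of all genes were higher and 14.6% lower, 12 of these 47 were higher and 5 lower (median 0.05). Against myb3r1 24 were higher and 4 lower (median 0.30). Of the 24 response genes 13 were higher and 5 lower against myb3r4 (median 0.42). Against myb3r1 16 of them were higher and 4 lower (median 0.43). A W-box, TTGACN on either strand, the textbook site of WRKY factors, lay in 22 of the 39 higher genes of both lists (56.4%), in 60.1% of genes at least 2-fold higher, and in 44% of all promoters of tested genes.

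**Figure D3:**
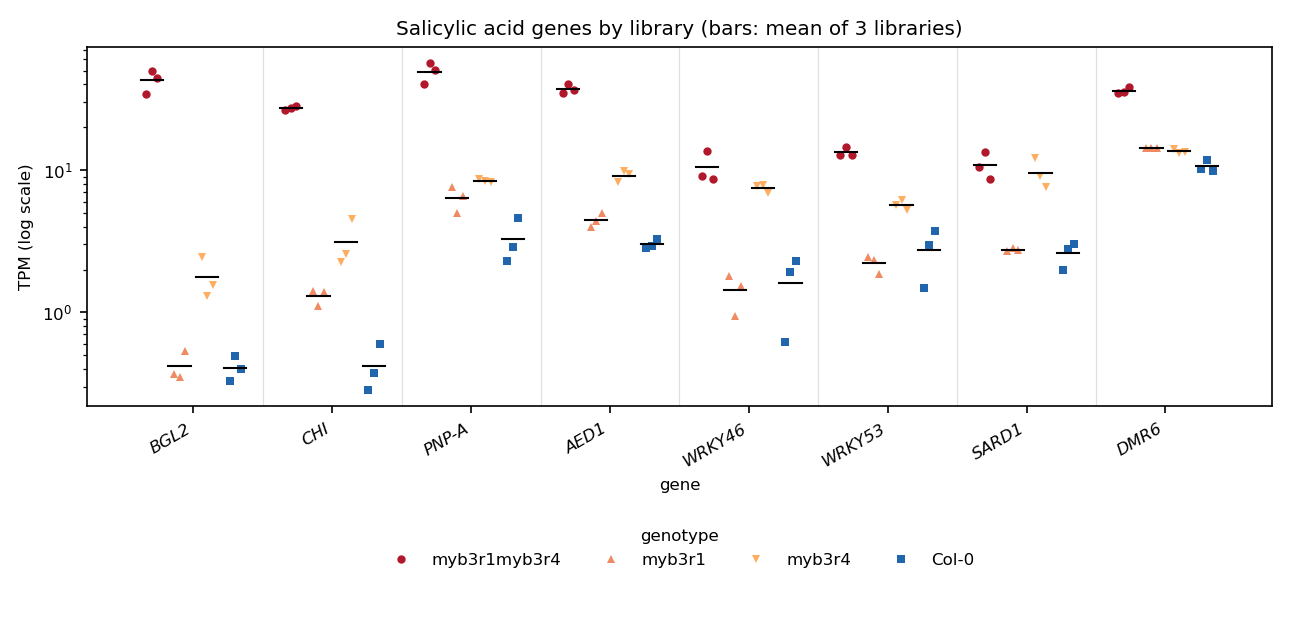
TPM on a log scale of 8 salicylic acid genes in each library of myb3r1myb3r4 (red circles), myb3r1 (orange triangles), myb3r4 (yellow inverted triangles) and Col-0 (blue squares), with black bars at the mean of 3 libraries. BGL2, CHI, PNP-A and AED1 stand highest in the double mutant, while for SARD1 the double mutant overlaps with myb3r4.

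Other stress and hormone groups were mixed. Over all genes tested, 24.5% were higher and 17.1% lower. In the jasmonate list 14 of 37 genes were higher (37.8%) and 6 lower (16.2%), and its median of 0.04 became -0.01 with median-of-ratios scaling. The synthesis genes AOC3 (2.19) and AOC2 (1.05) and the aminotransferase gene TAT3 (2.91) were higher, while the repressor JAZ13 (-3.29) and the stamen regulators MYB21 (-4.01) and MYB24 (-2.94) were lower. MYB21, which acts in late stamen growth, had 2.15, 0 and 0 TPM in the double mutant and 11.1, 17.0 and 13.3 TPM in Col-0, and without double mutant replicate 1 the fitted differences were -4.82 for MYB21 and -4.00 for JAZ13. Of 19 tested iron genes 6 were higher (31.6%) and 6 lower (31.6%). The iron-deficiency peptide genes IMA2 (2.82), IMA3 (2.00) and IMA1 (1.11) were higher, and the ferritin gene FER1 (-0.75) and the vacuolar transporter gene VTL1 (-0.85) were lower. In the flavonoid list 12 of 21 were higher (57.1%) and 1 lower (4.76%). The anthocyanin regulators PAP2 (1.68) and PAP1 (1.52) and the enzyme gene LDOX (1.31) were higher at under 3 TPM in the double mutant.

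Cold response genes had 3 higher (18.8%) and 6 lower (37.5%) of 16, with the dehydrin LTI30 (-1.54) and COR47 (-1.37) lower and ZAT10 (1.71) higher. Among 26 chaperone and unfolded protein genes 19 were higher and none was lower, led by BIP3 (1.19), HSFA2 (0.92) and HSP70 (0.88). BIP3 and HSFA2 were low, at most 1.86 and 1.92 TPM in a double mutant library. The HSFA2 differences from myb3r1 (0.33, limma adjusted p = 0.291) and myb3r4 (0.41, adjusted p = 0.182) did not pass. The proteasome, which degrades ubiquitin-tagged proteins including mitotic cyclins, moved as a whole by a small amount. Of 41 tested subunit genes 40 were higher and none was lower, with a median of 0.22 and a range of 0.08 to 0.36, and 35 were higher with median-of-ratios scaling. RPT2a had 150, 143 and 147 TPM in the double mutant and 117, 110 and 114 TPM in Col-0 (0.36, limma adjusted p = 6.62e-06), which did not overlap. Importins and exportins, which carry proteins through nuclear pores, had 12 higher and none lower of 19, with IMPA-8 at 0.79 and IMPA-6 at 0.51. Ribosome biogenesis genes stayed near the background, as 8 of 30 were higher and 1 lower, and the median of 0.05 became -0.00 with median-of-ratios scaling.

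Boundary and primordium regulators of the meristem were higher and the stem cell gene WUS was lower. Of 31 tested meristem and boundary genes 18 were higher and 1 lower. CUC1 had 13.7, 14.5 and 13.8 TPM in the double mutant and 9.51, 7.26 and 7.56 TPM in Col-0, and CUC2 had 14.3, 15.8 and 14.8 TPM in the double mutant and 9.68, 8.80 and 7.71 TPM in Col-0. These NAC factors, which set organ boundaries, were higher without overlap, by 0.76 and 0.75 (limma adjusted p = 0.000306 and 6.74e-05). The growth factors of primordia AIL6 (0.66) and ANT (0.53) were higher. The 1 lower gene was WUS, the stem cell organiser, at 8.21, 10.4 and 6.73 TPM in the double mutant and 13.8, 13.7 and 11.7 TPM in Col-0 (-0.62, adjusted p = 0.00271). WUS was lower in every double mutant library, but it did not differ past the threshold from myb3r1 (-0.37, adjusted p = 0.0529) or myb3r4 (-0.27, adjusted p = 0.138). Differences in STM (0.08, adjusted p = 0.341) and CLV1 (-0.14, adjusted p = 0.0696) did not pass.

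Of 19 organ polarity genes 16 were higher and 1 lower. FIL, a YABBY factor of the abaxial side, had 141, 129 and 147 TPM in the double mutant and 83.9, 74.5 and 78.3 TPM in Col-0, far apart (0.81, limma adjusted p = 1.35e-06). KAN2 (0.60), AS2 (0.54) and YAB3 (0.51) were higher, and the ovule gene INO was lower (-0.61). Floral identity genes had 12 higher (48%) and 4 lower (16%) of 25, and their median of 0.04 became -0.01, with 10 higher and 8 lower, under median-of-ratios scaling. LFY, the switch to floral fate, had 11, 8.89 and 10.4 TPM in the double mutant and 4.27, 4.19 and 3.94 TPM in Col-0. It was more than 2-fold higher without overlap (1.19 ± 0.15, SE, adjusted p = 3.66e-05), and by 1.15 and 1.11 against myb3r1 and myb3r4. Its partner UFO (0.91), the bZIP factor FD (0.91) and the antagonist TFL1 (0.57) were higher as well. SEP3 (-0.39), SHP1 (-0.43) and SHP2 (-0.39), which act in later floral organs, were lower, while SEP1 (0.38) and SEP2 (0.35) were higher.

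Cytokinin, which drives cell division through a phosphorelay, induces the type-A response regulators as feedback. Of 8 tested type-A genes none was higher and 5 were lower, with a median of -0.27. ARR15 had 29.8, 33.1 and 33.9 TPM in the double mutant and 41.5, 46.6 and 53.6 TPM in Col-0, without overlap (-0.54, limma adjusted p = 0.0086). ARR9 (-0.49), ARR16 (-0.39), ARR6 (-0.32) and ARR4 (-0.21) were lower, and ARR5 (0.00), ARR7 (0.15) and ARR8 (-0.22) did not pass. All 8 were lower than in myb3r4. The degrading enzymes CKX3 (-0.95) and CKX2 (-0.87) were lower and the activating enzymes LOG5 (1.01) and LOG7 (0.79) higher. In that list of 40, 12 were higher (30%) and 4 lower (10%), against 7 and 5 with median-of-ratios scaling. Over all genes tested 24.5% were higher and 17.1% lower. Auxin genes lay near these shares, with 11 higher (27.5%) and 7 lower (17.5%) of 40. The auxin median of 0.03 became -0.02 with median-of-ratios scaling, and PID (0.84), a kinase gene of auxin transport, was higher.

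Genes of the anther moved in opposite ways. The tapetum is the layer that feeds developing pollen. Of 31 tested tapetum and pollen wall genes 21 were higher and 6 lower, with a median of 0.59. A9, a tapetum protein gene, had 566, 540 and 642 TPM in the double mutant and 346, 279 and 288 TPM in Col-0, without overlap (0.94, limma adjusted p = 0.000748). The pollen wall enzymes PKSB (1.01), ACOS5 (0.91) and DRL1 (0.88) and the regulator AMS (0.74) were higher. The pollen coat genes GRP17 (-1.06) and EXL6 (-0.93) and the callose synthase CALS5 (-0.95) were lower. Of 31 meiosis genes 20 were higher and 1 lower, with ASY1, a protein of the chromosome axis, at 4.24, 3.85 and 3.76 TPM in the double mutant and 2.31, 2.43 and 2.1 TPM in Col-0 (0.68, adjusted p = 0.000436).

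Mature pollen genes were lower almost throughout. Of 51 tested members 45 were lower and none was higher, with a median of -1.37. AGP11, an arabinogalactan protein of pollen, had 10.5, 11.8 and 4.27 TPM in the double mutant and 70.7, 92.4 and 75.1 TPM in Col-0, several-fold apart (-3.20, limma adjusted p = 8.13e-06). VGDH1, a pectin methylesterase of the pollen tube, had 2.2, 3.02 and 0.231 TPM in the double mutant and 21.1, 30.7 and 19.8 TPM in Col-0 (-3.65, adjusted p = 3.44e-05, and -2.96 without double mutant replicate 3). Double mutant replicate 3 was the lowest of the 3 for both genes. The genes that did not pass were ANX1, HAP2, GEX1, DUO3, PIP5K6 and TUA1. The list was also lower than in the single mutants, with medians of -0.70 against myb3r1 (30 lower, none higher) and -0.90 against myb3r4 (37 lower, 1 higher).

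Markers of tissues a meristem pool can hold moved with these groups. Some markers, such as A9, PKSB, ACOS5, AMS, RALFL19 and PRK2A, are also members of the lists above, so this is not separate support. Summed over 12 tapetum markers, the double mutant libraries held 1470, 1413 and 1665 TPM, against 931, 792 and 774 TPM in Col-0, with 11 of 12 called higher. Summed over 18 pollen markers, they held 129, 104 and 60.2 TPM, against 510, 612 and 514 TPM in Col-0, with 15 of 17 tested called lower. The meristem markers summed to 382, 389 and 375 TPM in the double mutant and 343, 349 and 352 TPM in Col-0, the smallest relative gap of these 3 sets. Of 12 tested meristem markers 6 were called higher and 1 lower. AP1 made up the largest part of these sums, at 139 to 158 TPM in the double mutant and 151 to 163 TPM in Col-0. Vascular markers summed to 130 to 143 TPM in the double mutant and 169 to 176 TPM in Col-0, with 2 higher and 6 lower of 10, and stomatal markers to 54.0 to 58.6 TPM in the double mutant and 72.6 to 75.4 TPM in Col-0, with none higher and 5 lower of 8. No marker was at 0 in all 6 libraries. The part of these markers' tissues in the results was not tested.

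**Figure D4:**
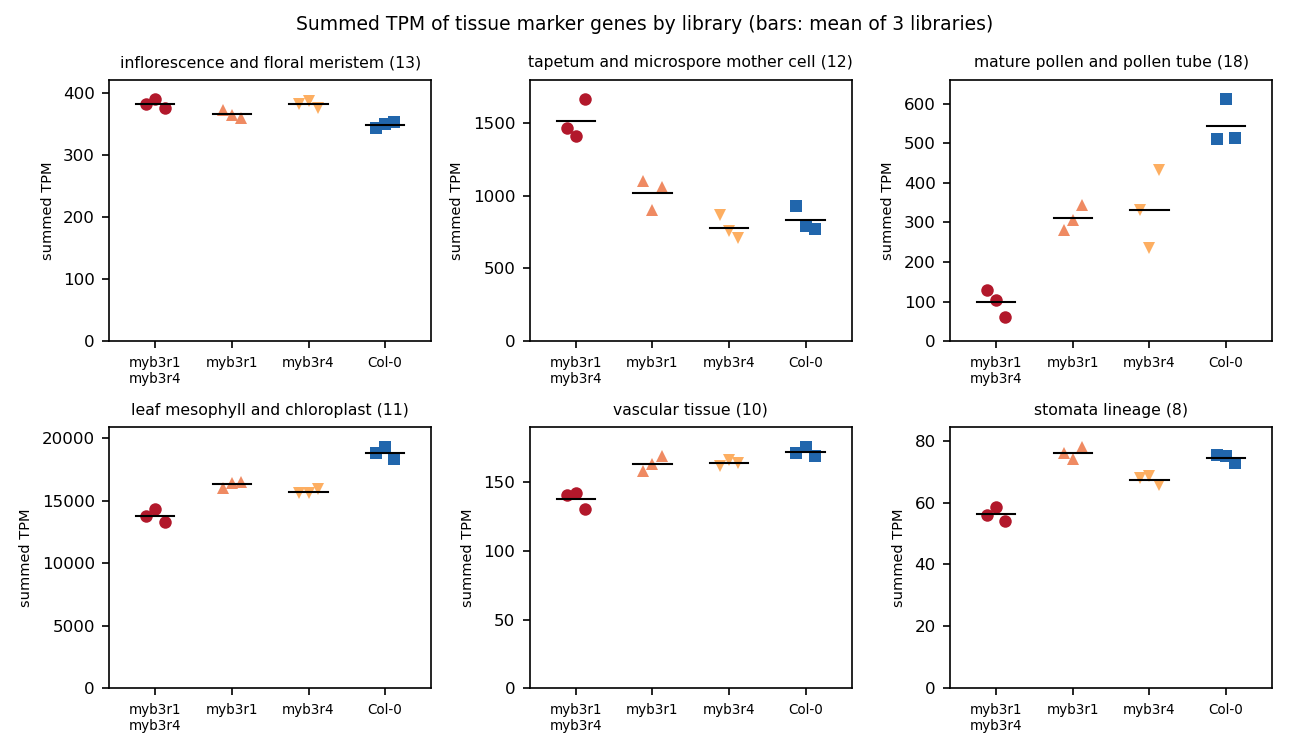
Summed TPM of 6 sets of tissue marker genes in each library, from left to right myb3r1myb3r4 (red circles), myb3r1 (orange triangles), myb3r4 (yellow inverted triangles) and Col-0 (blue squares), with the number of genes in parentheses and black bars at the mean of 3 libraries; axes start at 0. Tapetum sums are highest and pollen, leaf, vascular and stomata sums lowest in the double mutant.

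Photosynthesis genes were lower as a group. Of 52 tested light harvesting and photosystem genes 48 were lower and 1 higher, with a median of -0.37. Against the single mutants the list median was smaller, at -0.17 from myb3r1 (35 lower, 3 higher) and -0.18 from myb3r4 (34 lower, 8 higher). CAB1, a chlorophyll-binding antenna gene, had 2764, 2819 and 2656 TPM in the double mutant and 5079, 5170 and 5126 TPM in Col-0, far apart (-0.90, limma adjusted p = 6.4e-07). CAB1 lay between these levels in the single mutants, with means of 3724 TPM in myb3r1 and 3400 TPM in myb3r4. LHCB1.4, another antenna gene, had 14.9, 16.9 and 12.3 TPM in the double mutant, 27.4, 28.5 and 29.8 TPM in myb3r1, 22.7, 25.9 and 32.8 TPM in myb3r4, and 102, 106 and 106 TPM in Col-0. Much of its difference from Col-0 was present in both single mutants, and antenna genes resemble one another enough to share reads. The leaf markers, all 11 of them called lower, summed to 13799, 14362 and 13295 TPM in the double mutant and 18846, 19339 and 18350 TPM in Col-0. Of 104 tested genes encoded in the plastid 1 was higher and 16 lower, a share of lower genes near the 17.1% over all genes. Their median log2 difference was nevertheless -0.41. All genes encoded in the plastid summed to 625 to 657 TPM in the double mutant and 779 to 866 TPM in Col-0, without overlap.

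Secondary wall genes of the xylem had 1 higher (2.78%) and 16 lower (44.4%) of 36. IRX12, a laccase, had 18.1, 13.2 and 12.1 TPM in the double mutant and 30.2, 40.3 and 34.6 TPM in Col-0, without overlap (-1.26, limma adjusted p = 6.25e-05), and IRX8 differed by -1.14. Clock genes lay near the background, with 3 higher and 4 lower of 17.

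**Figure D5:**
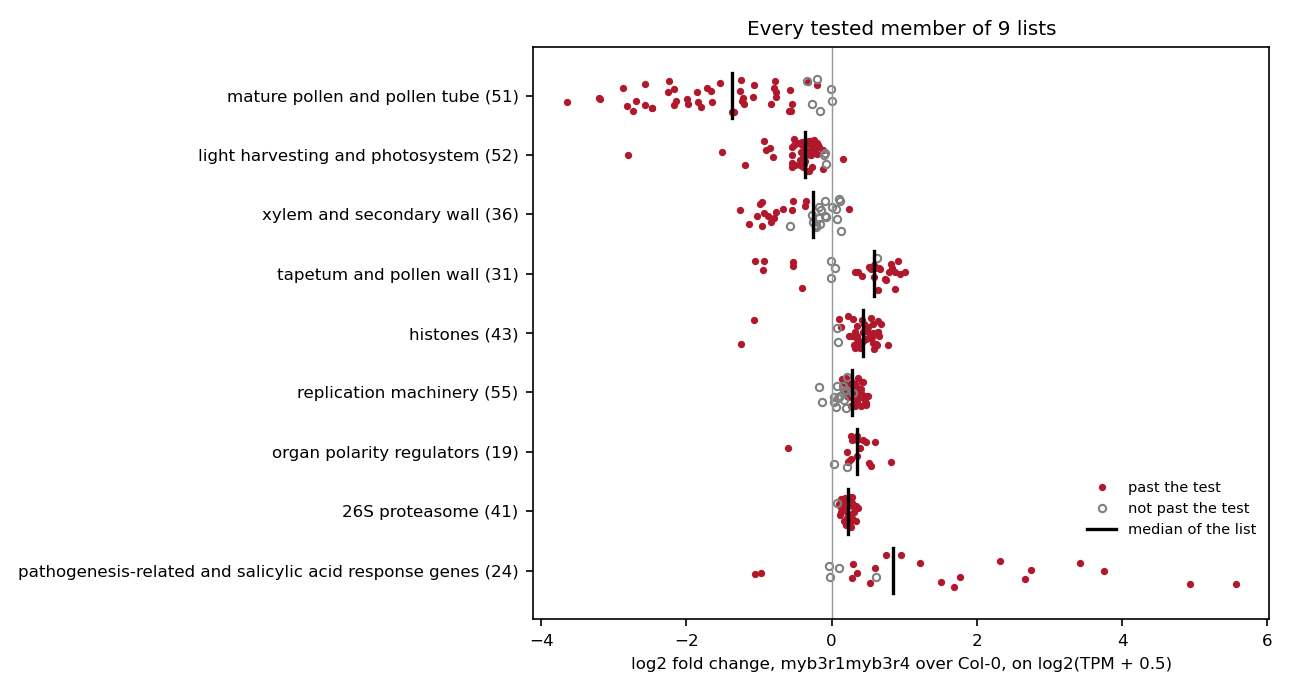
Log2 difference, on log2(TPM + 0.5), of every tested member of 9 lists in myb3r1myb3r4 over Col-0, with red points past the limma test, open grey points not past it, vertical jitter without meaning, and black bars at the list median. Mature pollen genes spread from about no difference down to -3.65 and salicylic acid response genes up to 5.57, while proteasome genes cluster between 0.08 and 0.36.

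Beyond the lists, several genes showed differences larger than any cell division gene. AT3G02120, annotated as a hydroxyproline-rich glycoprotein family protein, had 3.28, 4.42 and 3.03 TPM in the double mutant, 64.3, 56.6 and 69.1 TPM in myb3r1, 17.1, 17.0 and 12.5 TPM in myb3r4, and 80.0, 74.1 and 77.7 TPM in Col-0. The 4 genotypes did not overlap, and the double mutant was lower than Col-0 by -4.27 ± 0.14 (log2, SE, limma adjusted p = 2.03e-10) and than myb3r4 by -1.98 (adjusted p = 1.5e-06). The unclassified RNA AT1G04425 had the same grading, with 0.357, 0.656 and 0.730 TPM in the double mutant, 25.8, 21.4 and 23.6 TPM in myb3r1, 1.61, 3.09 and 2.97 TPM in myb3r4, and 38, 36.3 and 35.2 TPM in Col-0 (-5.11 against Col-0, adjusted p = 3.21e-10). Both genes were thus lowest when both MYB3R genes were mutated, and closer to Col-0 in myb3r1 than in myb3r4. The RNAs AT3G59765 (-4.29) and AT1G78865 (-4.06) were also below both single mutants. Other large falls included genes of small secreted proteins. The defensin-like gene AT5G60615 had 2.73, 0 and 0 TPM in the double mutant and 37.0, 89.1 and 39.8 TPM in Col-0, and RALFL20, of a family of signalling peptides, had 4.19, 0 and 0 TPM in the double mutant and 27.8, 25.8 and 35.3 TPM in Col-0. Double mutant replicate 1 held the only transcripts of these genes in the double mutant, and leaving it out gave fitted differences of -6.68 and -5.90, against -5.78 and -4.82 with it.

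Large rises outside the lists included the uncharacterised gene AT1G58225 (4.40), 2 chitinase family genes, AT2G43590 (4.17) and AT2G43620 (3.75), and the receptor-like kinase CRK6 (3.52). AT2G43620 had 81.8, 82.4 and 89.0 TPM in the double mutant and 6.35, 5.69 and 5.40 TPM in Col-0, clearly separate (limma adjusted p = 6.93e-12). AT5G52760, annotated as a copper transport family protein, was higher than Col-0 by 3.65 (adjusted p = 2.77e-06), but its difference from myb3r4 was 0.39 (adjusted p = 0.374). AT2G16367 had 41.5, 48.4 and 56.2 TPM in the double mutant and 0, 0 and 3.48 TPM in Col-0, and its fitted difference of 5.61 was 6.61 without Col-0 replicate 3.

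A few genes differed strongly from Col-0 in all 3 mutants. MRD1 had 0.108, 0.248 and 0.217 TPM in the double mutant, 0.302, 0.0707 and 0.20 TPM in myb3r1, 0.550, 0.254 and 0.578 TPM in myb3r4, and 44.5, 43.4 and 49.2 TPM in Col-0. AT5G35935 ran the other way, with 8.6, 8.19 and 8.65 TPM in the double mutant, 8.03, 6.92 and 7.38 TPM in myb3r1, 6.91, 7.27 and 6.81 TPM in myb3r4, and at most 0.0254 TPM in Col-0. Neither differed between the double mutant and myb3r1 past the threshold (limma adjusted p = 0.979 and 0.167), but both differed from myb3r4, MRD1 by -0.46 (adjusted p = 0.0292) and AT5G35935 by 0.26 (adjusted p = 0.0448). The meiotic crossover gene HEI10 (chromosome 1, 19963267 to 19966952, plus strand) overlaps MRD1 (19963047 to 19964712, minus strand), and their values may share reads. HEI10 averaged 2.84 TPM in the double mutant, 1.93 TPM in myb3r1, 2.58 TPM in myb3r4 and 7.43 TPM in Col-0. CAB2 had 108, 133 and 89.1 TPM in the double mutant, 88.5, 103 and 102 TPM in myb3r1, 67.2, 69.3 and 84.3 TPM in myb3r4, and 308, 334 and 291 TPM in Col-0, so it was not lower in the double mutant than in the single mutants.

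Among abundant transcripts, the larger gains in TPM included VSP1, a jasmonate-induced storage protein, KIN2, a cold and stress gene, and tapetum genes. VSP1 had 4704, 4625 and 4844 TPM in the double mutant and 2888, 3156 and 2932 TPM in Col-0 (0.66, limma adjusted p = 2.37e-05). KIN2 had 7572, 7575 and 7673 TPM in the double mutant and 6558, 6482 and 6106 TPM in Col-0 (0.25, adjusted p = 0.00102). The neighbouring cold gene KIN1 ran the other way, at 556, 500 and 399 TPM in the double mutant and 845, 888 and 839 TPM in Col-0 (-0.83, limma adjusted p = 8.76e-05). AT5G44540, annotated as a tapetum-specific protein, had 1490, 1477 and 1598 TPM in the double mutant and 830, 773 and 638 TPM in Col-0 (1.03, adjusted p = 0.000575). For VSP1, KIN2 and AT5G44540 every double mutant library lay above every Col-0 library. The enzyme genes GSTF9 (0.84) and BGLU18 (0.66) were also higher. The losses, besides CAB1, included TGG2, a myrosinase, at 732, 743 and 657 TPM in the double mutant and 1348, 1429 and 1398 TPM in Col-0 (-0.97, adjusted p = 2.77e-06), and AGP23, a pollen arabinogalactan protein, at 304, 238 and 170 TPM in the double mutant and 866, 960 and 840 TPM in Col-0 (-1.94, adjusted p = 6.7e-06). The genes called higher held on average 339774 TPM in the double mutant and 275437 TPM in Col-0, and the genes called lower held 200822 TPM in the double mutant and 272909 TPM in Col-0. Both sets were picked by direction from these same values, so only the size of the gaps is informative, and the sets change with scaling.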

How the data were processed

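Values were TPM per gene, made by the authors. The submitters' processing notes name FastQC, Salmon and TAIR10 without versions, and how transcripts were summed to genes is not given in the sources used here. Groups came from the sample titles. Genes with at least 1 TPM in at least 3 libraries (21737) were tested with limma 3.58.1 in R 4.3.3 on log2(TPM + 0.5). The model held 5 group means over 15 libraries, with 10 residual degrees of freedom and a variance trend, and two-sided p-values, with Benjamini-Hochberg adjustment across the genes tested, were called at 0.05. The fit was tested on simulated data. Members and lists were chosen with earlier results of these data known. Genes were named by rule, as the MYB3R genes, the 12 largest fold changes in each direction among called genes with separate groups and a mean of at least 5 TPM, the 8 largest TPM gains and losses, and the largest called members of each list; further list members are given as values. Symbols, positions and promoters came from RefSeq TAIR10.1, which matched 21469 tested genes. Near-identical paralogs and overlapping genes may share reads. Replicate numbers equal a shift experiment number in the labels that is not explained. Alternatives were other pseudocounts, filters, scalings and variance models, the 6 libraries alone, a replicate block, and each library left out.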

Additional observations from a re-analysis of the deposited data

How the results depend on the processing

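The count of genes called, 9037, ranged from 7813 to 9189 under the other pseudocounts, filters, scalings and variance models. It ranged from 7241 (without double mutant replicate 3) to 8305 (without double mutant replicate 2) when 1 library was left out. The count at least 2-fold higher, 343, became 190 when 5 TPM was required in 3 libraries, a filter that left 17349 genes. Replicate numbers gave no pairing, since the deviations of same-numbered libraries correlated at -0.0394, 0.0885 and 0.00928, and a fit with the replicate as a block called 8830 genes. Of 158 named genes, none reversed, and 147 of the 157 called kept their call under every alternative run. The medians of 5 lists near 0 changed sign, the cause of which was not tested. Floral identity genes gave -0.01, auxin genes -0.02, jasmonate genes -0.01 and ribosome biogenesis genes -0.00 with median-of-ratios scaling, and jasmonate genes gave -0.01 to 0.11 with 1 library left out, the lowest without double mutant replicate 2. Iron genes, at -0.04, gave 0.00 with the 5 TPM filter and -0.14 to 0.03 with 1 library left out, above 0 without Col-0 replicate 1 (0.02) or 3 (0.03). Without read totals, genes near 0 TPM have the least certain values.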

Other observations

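Grouping the tested genes by the protein family in their annotation, a grouping made after the values were seen and not tested, showed further families that moved largely one way. The small secreted proteins related to pollen and pistil signalling were lower in the double mutant. Of 16 SCR-like genes, related to the pollen ligand of self-incompatibility, 13 were lower and 0 higher, with a median log2 difference of -2.13. Of 17 genes of the self-incompatibility protein S1 family 13 were lower and 1 higher (median -2.28), and of 34 low-molecular-weight cysteine-rich genes 24 were lower and 3 higher (median -2.15). Many of these genes lie near 0 TPM.

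Families on the higher side included some immune receptors. Of 38 TIR-NBS-LRR disease resistance genes, whose products sense pathogen effectors, 21 were higher and 1 lower (median 0.23), and of 16 cysteine-rich receptor-like kinases 11 were higher and 0 lower (median 0.56). The CC-NBS-LRR disease resistance genes were nearer to the 24.5% higher over all genes, with 6 of 20 higher (30%) and 0 lower (median 0.08). Among 36 WRKY transcription factors 18 were higher and 5 lower (median 0.38). Nuclear families were also on this side, with 10 of 14 AT hook DNA-binding genes higher and 0 lower (median 0.31), and 15 of 22 small nuclear ribonucleoprotein genes of splicing higher and 0 lower (median 0.21).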
